A study of Homo sapiens with 4 samples.

Results

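Peaks on the exons of long noncoding RNAs made up a small share of the sites recovered with IGF2BP3. A peak is a stretch of the genome where sequenced RNA fragments from the immunoprecipitate piled up above a background, and its summit is the highest point. A peak was counted here when it was at most 1000 bp wide and its summit lay in an exon of a gene of type lncRNA in GENCODE release 44 and in no exon of a protein-coding gene. By that rule 775 of 44622 peaks (1.74%) of RIP replicate 1 and 704 of 42723 peaks (1.65%) of RIP replicate 2 were lncRNA exon peaks, 1479 of 87345 in all. A summit in a lncRNA exon was found in 1584 and 1485 peaks of the replicates, of which 785 and 767 also lay in a protein-coding exon and 24 and 14 more were wider than the limit. The widest peaks kept spanned 955 and 968 bp, with fold enrichments of 4.32 and 3.54, and the narrowest left out spanned 1018 and 1030 bp, with fold enrichments of 2.84 and 3.60.

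All samples were of the OE-19 line, an established line that stems from an esophagogastric junction adenocarcinoma, grown in medium with serum, with no treatment named in the labels. The labels give fixation with UV before lysis, whereas the study's RIP methods name no fixation. RIP-seq sequences the RNA that an antibody brings down with a protein from the lysate. The series held 4 libraries, 2 made with an anti-IGF2BP3 antibody and 2 of input made without antibody, and each RIP library had its own list of peaks. Input values were not analysed here, so that enrichment over background is known only as the authors' peak caller gave it. Nothing in the labels says whether the replicates were separate cultures, and the spread given below may be technical. Peak lists do not measure expression. Among epithelial markers, CDH1 had 4 and 8 summits in its exons, and EPCAM, KRT8, KRT18, KRT19 and ERBB2 had none. Among markers of other cell types, COL1A1 had none in replicate 1 and 5 in replicate 2, and VIM, PTPRC and PECAM1 had none.

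IGF2BP3 is an RNA-binding protein with RNA recognition motifs and KH domains that is made in the embryo, is mostly silent in adult tissue and returns in many carcinomas. It is known for binding mRNAs and stabilising them, and it is described as a reader of N6-methyladenosine, a mark placed on the A of GGAC and related sequences. Long noncoding RNAs are spliced and polyadenylated like mRNAs but are not annotated with a protein product. Many are copies of parts of protein-coding genes, run antisense to one, or host small RNAs in their introns.

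The sequences below show the strongest site that both replicates shared in each of 5 lncRNA genes, so that the letters under the summits can be read beside the values that follow. Each holds the replicate 1 summit in hg38 with 50 nt on either side, 5′ to 3′ on the strand of the lncRNA, and capitals mark GGAC. The first gene, ENSG00000285756, has no symbol in the annotation. Its window lies at chrX:3899286-3899386 on the minus strand, in exon 3 of 13 of transcript ENST00000648217.1.
ENSG00000285756: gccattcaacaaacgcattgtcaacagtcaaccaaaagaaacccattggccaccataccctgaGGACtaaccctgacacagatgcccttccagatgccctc
The DHRS4-AS1 window lies at chr14:23941014-23941114 on the minus strand, in exon 2 of 2 of ENST00000654375.1, a transcript antisense to DHRS4.
DHRS4-AS1: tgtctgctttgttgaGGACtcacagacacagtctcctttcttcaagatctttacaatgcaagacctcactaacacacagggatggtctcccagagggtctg
The LINC01138 window lies at chr1:148291092-148291192 on the minus strand, in exon 9 of 9 of ENST00000640832.1.
LINC01138: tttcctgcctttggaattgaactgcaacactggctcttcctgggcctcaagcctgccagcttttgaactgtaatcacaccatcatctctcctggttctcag
The GTF2IP1 window lies at chr7:75196657-75196757 on the minus strand, in exon 15 of 24 of ENST00000622829.4.
GTF2IP1: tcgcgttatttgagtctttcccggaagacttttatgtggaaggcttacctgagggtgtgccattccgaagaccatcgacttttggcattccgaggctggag
The MCF2L-AS1 window lies at chr13:112967716-112967816 on the minus strand, in exon 2 of 2 of ENST00000446789.2 and inside the body of MCF2L, which runs the other way.
MCF2L-AS1: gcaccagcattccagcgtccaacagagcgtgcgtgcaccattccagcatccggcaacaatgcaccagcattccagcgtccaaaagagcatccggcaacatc

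These windows differed in how far their sequence was their own. The ENSG00000285756 and GTF2IP1 windows each occurred 3 times in the genome, and the other 3 windows occurred once. The GTF2IP1 window was identical over its aligned bases to the coding sequence of GTF2I, the gene of a general transcription factor of which GTF2IP1 is a partial copy. GGAC was present once in the ENSG00000285756 window and once in the DHRS4-AS1 window and not in the remaining 3.

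Enrichment at these sites was uneven between the replicates. The ENSG00000285756 site had fold enrichments of 4.85 in replicate 1 and 3.79 in replicate 2, and its summits lay 85 nt apart. At the DHRS4-AS1 site the fold enrichments were 5.88 and 2.62, with summits 103 nt apart. LINC01138 showed the opposite order, with 4.25 and 5.25 and summits 2 nt apart. In GTF2IP1 the values were 4.77 and 2.81, with summits 2 nt apart, and in MCF2L-AS1 they were 5.81 and 3.42, with summits 126 nt apart. Each site had a q of at most 0.05 in no more than 1 replicate, a q being the caller's probability corrected for multiple testing.

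LncRNA exon peaks were less enriched than peaks on mRNA exons in both replicates. The fold enrichment is the ratio of RIP signal to local background at the summit. Its median over lncRNA exon peaks was 2.69 in replicate 1 and 2.55 in replicate 2, a mean of 2.62 ± 0.0979 (SD, n = 2). For peaks with a summit in a protein-coding exon and the same width limit, called mRNA exon peaks here, the medians were 2.93 and 2.93. The difference, lncRNA minus mRNA, was -0.242 and -0.385, a mean of -0.314 ± 0.101 (SD, n = 2), larger than the spread between replicates. The highest lncRNA values were 5.88 and 5.25, against 11.7 and 10.2 on mRNA exons. A fold enrichment of at least 5 was reached by 5 and 4 lncRNA exon peaks, or 0.645% and 0.568%, and by 4.38% and 3.54% of mRNA exon peaks. With 2 replicates no test of the difference was made.

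**Figure D1:**
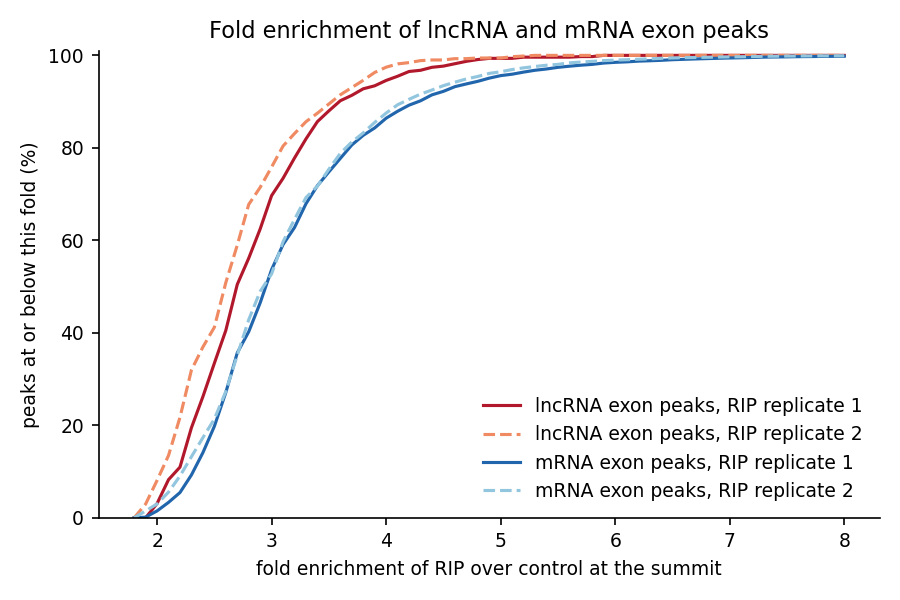
The plot gives, for each fold enrichment on the x axis up to 8, the percentage of peaks at or below it on the y axis, with 1 line per RIP replicate for lncRNA exon peaks and mRNA exon peaks. Over most of the range both lncRNA lines lie left of both mRNA lines, with medians of 2.69 and 2.55 against 2.93 and 2.93.

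Few of these peaks had a low corrected probability. The caller set a q of at most 0.05 for 30 lncRNA exon peaks (3.87%) in replicate 1, where 9.77% of all deposited peaks had one, and for 10 (1.42%) in replicate 2, where 7.47% did. The caller gave a q of 1 to 67.5% and 80.1% of lncRNA exon peaks, against 61.4% and 66.2% of mRNA exon peaks. Across genes, 36 lncRNAs had at least 1 peak with a q of at most 0.05 in either replicate. Within the width limit only ENSG00000285756 had one in each replicate, with lowest q values of 0.00253 and 0.00267. Among the wider peaks left out, UCA1 (q of 0.00163 and 0.000829), BCAR3-AS1 (0.0423 and 0.0294) and ENSG00000291186 (0.0258 and 0.00424) also had one in each.

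Of the lncRNA exon peaks, 55.1% ± 4.03 (SD, n = 2) were found again in the other library. At least 1 bp of overlap with any peak of the other replicate was seen for 405 peaks (52.3%) of replicate 1, where the share over all deposited peaks was 60.2%, and for 408 peaks (58.0%) of replicate 2, where it was 64.2%. For mRNA exon peaks the shares were 60.3% and 64.3%. The comparison was repeated among peaks of like fold enrichment. Among peaks with a fold enrichment from 2 to 2.5, 37.8% ± 3.55 (SD, n = 2) of lncRNA and 47.4% ± 0.819 of mRNA exon peaks overlapped. From 2.5 to 3 the shares were 56.4% ± 7.23 and 58.1% ± 4.25, and from 3 to 3.5 they were 76.5% ± 9.63 and 66.1% ± 4.78. LncRNA exon peaks were thus below mRNA exon peaks beyond the spread from 2 to 2.5, within it from 2.5 to 3 and above them from 3 to 3.5. Peaks with a fold below 2 or of 3.5 and more were left out of this comparison. Among peaks with a q of at most 0.05, lncRNA exon peaks were lower, with 66.7% and 80% overlapping against 83.5% and 84.6% of mRNA exon peaks. Overlap of 50% of both peaks, a stricter rule, was met by 26.6% ± 1.995 (SD, n = 2) of lncRNA exon peaks.

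Where a lncRNA exon peak of replicate 1 had its longest overlap with a lncRNA exon peak of replicate 2, the folds were only loosely related. Over these 364 pairs of peaks Pearson's r of the log2 folds was 0.388 and Spearman's rho 0.397. The points are sites on genes that several pairs can share and carry no independent error, so the coefficients are a description. Summits of a pair were a median of 50.5 nt apart, and 182 pairs had summits within 50 nt.

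**Figure D2:**
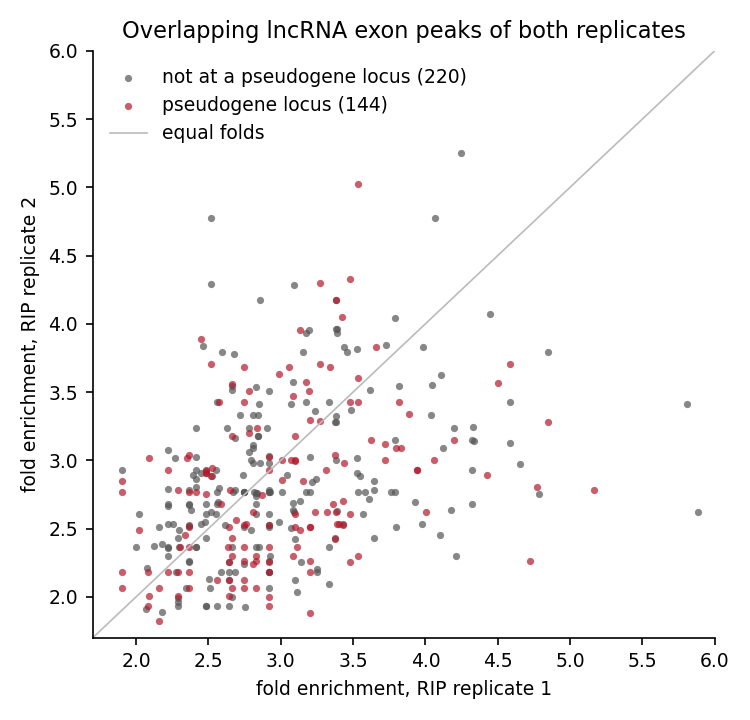
Each point is 1 of 364 overlapping pairs of lncRNA exon peaks, with its fold enrichment in RIP replicate 1 on the x axis and in RIP replicate 2 on the y axis, coloured by whether it lies at a pseudogene locus. Points lie on both sides of the line of equal folds and scatter widely about it (Pearson's r of 0.388 on log2 folds).

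In genes, lncRNAs with a peak were a small part of the annotation. Replicate 1 had at least 1 lncRNA exon peak in 342 lncRNA genes and replicate 2 in 311. A peak was present in both lists for 232 of the 421 genes found in either (55.1%). In 177 genes a peak of replicate 1 had its longest overlap with a lncRNA exon peak of replicate 2, assigned to any lncRNA gene. The 421 were 2.23% of 18866 annotated lncRNA genes. Because lncRNA genes overlap, 81 of the 1479 peaks were assigned to more than 1 of them. By comparison 32.6% and 31.6% of protein-coding genes had an mRNA exon peak. Among the lncRNA genes with a peak, 177 and 155 carried a single one. The density was 0.412 ± 0.0273 peaks per kb of exon (SD, n = 2) over the lncRNA genes with a peak, against 0.784 ± 0.00656 over protein-coding genes with a peak. No symbol was assigned in the annotation to 198 of the 421 genes.

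The 10 lncRNA genes with the most peaks held 15.98% of all assignments of a peak to a gene. ENSG00000242588, at chr7:128531707-128663479 on the plus strand, came first with 23 peaks in replicate 1 and 19 in replicate 2. Its folds were low, with medians of 2.65 and 2.43, and its lowest q values were 0.0777 and 0.0864. Pseudogene exons lay under 24 of these 42 summits, and 11 of the 42 windows were like a protein-coding transcript, of which 7 matched TLK2, the gene of a kinase that acts on chromatin assembly factors.

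ENSG00000285756, at chrX:3817528-3937855 on the minus strand, had 17 and 19 peaks. Its folds ran from 2.59 to 4.85 with a median of 3.53 in replicate 1, and from 1.996 to 4.07 with a median of 3.02 in replicate 2. Of the 17 peaks 6, and of the 19 peaks 2, had a q of at most 0.05, and 15 and 16 of them overlapped a peak of the other replicate. Of its 36 windows, 24 had at least 1 further identical copy in the genome and 15 were like a protein-coding transcript at a median identity of 93.1%, with ZNF839 as the best match of 12. The peaks were spread over most of the gene. Exons of like length recur along it, as from 17.109 to 17.662 kb and from 55.538 to 56.091 kb. Whether the identical copies lie within the gene was not examined, so the peaks may not be separate sites.

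**Figure D3:**
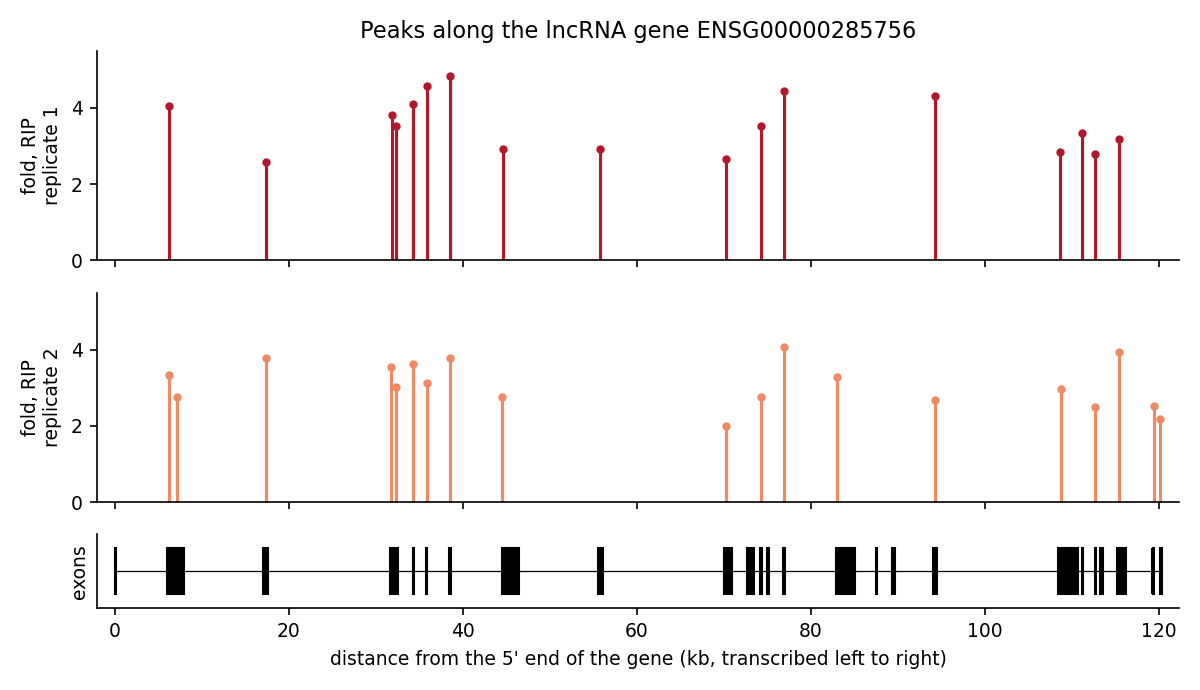
The map shows the lncRNA gene ENSG00000285756, with distance from its 5′ end in kb on the x axis, the fold enrichment of each peak as a stem for RIP replicate 1 (top) and 2 (middle), and exons as black boxes (bottom). The 17 and 19 peaks fall on exons all along the gene, and the highest stems reach 4.85 and 4.07.

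ENSG00000291073, at chr16:21446683-21520444 on the minus strand, had 18 and 16 peaks with median folds of 2.94 and 2.91. All 34 summits lay in pseudogene exons and 33 of the 34 windows had several identical copies, with up to 8 copies each. SMG1, the gene of a kinase of nonsense-mediated decay, was the best match of 12 windows. ENSG00000291003, at chr15:22516909-22590820 on the plus strand, had 9 and 11 peaks with median folds of 2.75 and 2.24, and 16 of its 20 windows were like HERC2, the gene of a giant ubiquitin ligase. DTX2P1-UPK3BP1-PMS2P11, at chr7:76959835-77043775 on the plus strand, had 10 and 8 peaks with median folds of 3.004 and 3.58. Of its 18 windows 12 were like DTX2, the gene of a ubiquitin ligase of the Notch pathway. How reads that fit several places were placed is not given in the sources used here, and the origin of the reads at these shared sequences was not tested.

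Of the others, CASC19, ID2-AS1 and ZNF252P had no window with a further copy, whereas in ENSG00000262879 12 of 18 windows were like a protein-coding transcript. NUTM2A-AS1, at chr10:87189773-87342612 on the minus strand, had 13 and 10 peaks with median folds of 2.83 and 2.72, of which 10 lay on windows with several copies. CASC19, a lncRNA of the region next to MYC, had 9 and 11 peaks with median folds of 3.09 and 2.62, and all 20 windows occurred once in the genome. ID2-AS1, at chr2:8666636-8681864 on the minus strand, had 8 and 12 peaks with median folds of 2.78 and 2.26, again each on a window found once. ZNF252P had 11 and 8 peaks with median folds of 3.22 and 3.42 and also no window with a further copy, and its highest peak of replicate 2 also lay in an exon of the lncRNA ENSG00000255164. ENSG00000262879, at chr17:46983287-47100323 on the minus strand, had 10 and 8 peaks with median folds of 3.14 and 2.96. Peak counts of each of the 10 genes differed between replicates by at most 4.

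**Figure D4:**
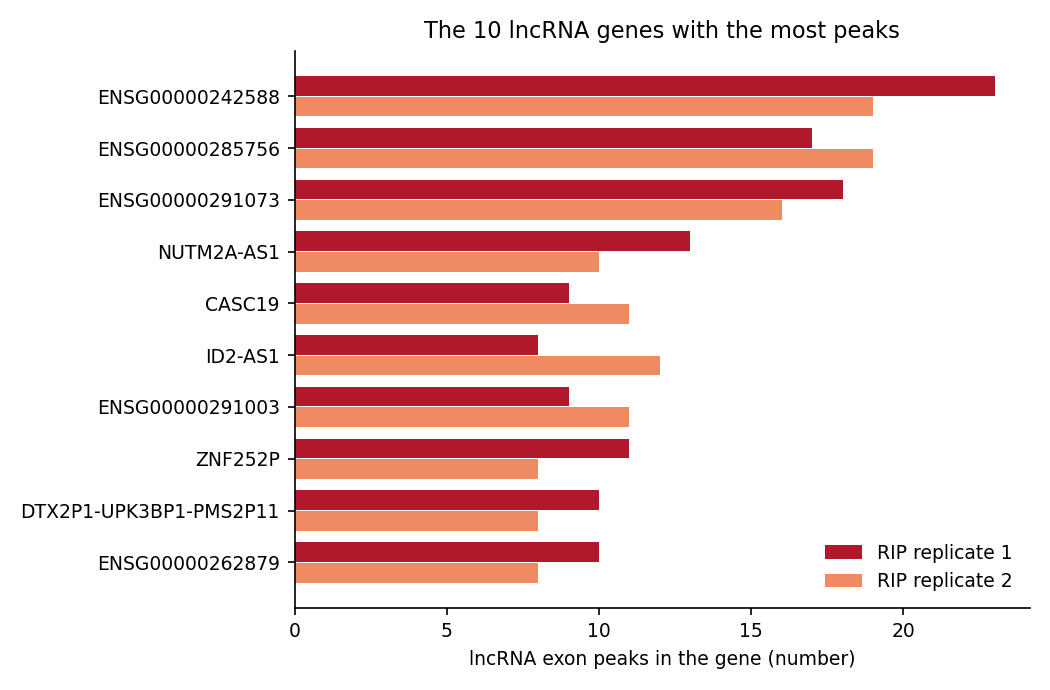
Bars give the number of lncRNA exon peaks per gene in RIP replicate 1 (dark) and 2 (light) for the 10 lncRNA genes with the most peaks. ENSG00000242588 leads with 23 and 19 peaks, followed by ENSG00000285756 with 17 and 19 and ENSG00000291073 with 18 and 16.

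Ranking genes by their highest fold, averaged over the replicates, gave a different set of leaders. DHRS4-AS1 came first with highest folds of 5.88 and 4.29, from 3 and 4 peaks. ZNF252P followed with 4.50 and 5.17, then LINC01138 with 4.25 and 5.25, MFSD14CP with 5.63 and 3.83, GTF2IP1 with 4.77 and 4.54 and MCF2L-AS1 with 5.81 and 3.42. The remaining genes of the 10 were ENSG00000285756, DTX2P1-UPK3BP1-PMS2P11 with 3.81 and 5.02, LINC00963 with 4.06 and 4.77, and ENSG00000291186 with 3.80 and 5.04. Within the width limit a low q came from a single replicate in most of these genes. DHRS4-AS1, MFSD14CP, GTF2IP1 and MCF2L-AS1 had a q of at most 0.05 in replicate 1 alone, ZNF252P, LINC01138, DTX2P1-UPK3BP1-PMS2P11, LINC00963 and ENSG00000291186 in replicate 2 alone, and ENSG00000285756 in both. The highest peak of MFSD14CP in replicate 1, with a fold of 5.63, had no partner in replicate 2 and sat on a window identical to MFSD14B over its aligned bases.

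By location, lncRNA exon peaks fell mostly at pseudogene loci or away from protein-coding genes. A pseudogene locus means here that the summit lay in a pseudogene exon or that the annotation tags the lncRNA as overlapping a pseudogene. Such loci held 315 peaks (40.6%) of replicate 1 and 272 (38.6%) of replicate 2. Summits in a pseudogene exon proper were 28.5% and 29.5%, whereas pseudogene exons cover 2.67% of the exon bases of all lncRNA genes and 8.55% of those of the 421 genes with a peak. Transcribed unprocessed pseudogenes, which arise by duplication of a gene with its introns and are still transcribed, lay under 185 and 173 summits. A further 43.7% and 46.4% of peaks lay outside the body of every protein-coding gene, 11.2% and 10.4% within one on the opposite strand, and 4.39% and 4.55% within one on the same strand. In all, 18.2% and 16.9% of summits lay inside a protein-coding gene body, where 19.4% of the exon bases of the 421 genes do. The peak lists carry no strand.

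Fold enrichment differed little between pseudogene loci and the rest. Its median was 2.64 ± 0.152 (SD, n = 2) at pseudogene loci and 2.62 ± 0.0645 elsewhere, a gap smaller than either spread. Among the latter it was 2.61 ± 0.110 outside protein-coding genes, 2.62 ± 0.0949 within one on the opposite strand and 2.78 ± 0.0215 within one on the same strand. The same-strand peaks, only 34 and 32, thus exceeded those outside protein-coding genes by more than either spread. Overlap with the other replicate was 51.1% and 57.4% at pseudogene loci and 53.0% and 58.3% elsewhere. Peaks at pseudogene loci were narrower, with median widths of 106 and 90.5 bp against 139 and 132.5 bp.

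A large share of the summits lay on sequence like that of an mRNA. A window was called like a protein-coding transcript when at least 80 nt of it, the summit with 50 nt on either side, aligned to one at an identity of at least 90%. That held for 237 windows (30.6%) of replicate 1 and 228 (32.4%) of replicate 2, against 20.0% of 19084 consecutive tiles of the same length along the exons of the same genes. Among the matching windows, 71.7% and 69.7% matched a coding sequence, so that 21.9% and 22.6% of all lncRNA exon peaks did, against 9.17% of the tiles. Exons shorter than a window gave no tile, whereas summit windows could run past such exons, so windows and tiles are not fully alike. At pseudogene loci 54.6% and 59.6% of windows were like a protein-coding transcript, and elsewhere 14.1% and 15.3% were. Of the matching windows, 84.9% and 85.2% at pseudogene loci matched a coding sequence, and 36.9% and 31.8% elsewhere. A window could match many genes, as 1 of MAP4K3-DT did with 314. Such windows were not counted apart from copies of a parent gene. Matching windows ran on the same strand as the mRNA in 81.4% and 85.1% of cases.

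Named parents recurred across several loci. SMG1 was the best match in ENSG00000291073, in 10 of 15 windows of ENSG00000291060 and in 5 of 8 of ENSG00000290674. HERC2 was the best match of 13 of 15 windows in HERC2P9 besides those in ENSG00000291003. ANAPC1, a subunit of the anaphase-promoting complex, was the best match of 9 of 10 windows in NCAL1 and of 6 of 10 in ANAPC1P2. BMS1, a factor of ribosome assembly, was the best match of the 6 windows that the overlapping genes ENSG00000254929 and ENSG00000290453 share, and PARG, which degrades poly(ADP-ribose), of 6 of 7 in ENSG00000290921. These genes were named after their matches had been counted. Copies of the same parent are not independent sites.

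Exact copies were common too. A second identical copy of the window was present in the genome for 26.1% of lncRNA exon peaks in replicate 1 and 25.9% in replicate 2, against 1.37% and 1.33% of mRNA exon peaks. At pseudogene loci the shares were 50.5% and 49.6%, elsewhere 9.35% and 10.9%. With windows of a single copy and no likeness to a protein-coding transcript, 458 and 407 peaks were left, or 59.1% and 57.8%. Only identical copies were counted, so windows with a near-identical copy elsewhere can remain among these peaks. Their median fold was 2.66 and 2.53, their overlap with the other replicate 49.1% and 55.8%, and 12 and 3 of them had a q of at most 0.05, that is 2.62% and 0.737%. Whether reads at shared sequence came from the lncRNA or from another copy was not tested.

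Along the transcript, summits leaned toward the 5′ end, though less than on mRNAs. Position was taken in the longest spliced transcript holding the summit. The median relative position was 41.0% ± 0.481 (SD, n = 2) of the way from the 5′ end, against 34.8% ± 0.529 for mRNA exon peaks, and the difference exceeded the spread between replicates. Upstream of the midpoint lay 60.1% and 58.4% of lncRNA summits, compared with 67.2% and 68.3% of mRNA summits. Divided into 10 equal bins, lncRNA transcripts held 17.3% and 15.6% of summits in the most 5′ bin and 5.55% and 6.68% in the most 3′ bin. On transcripts of a single exon, which carried 9.94% and 8.95% of summits, 48.1% and 46.0% lay upstream of the midpoint.

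**Figure D5:**
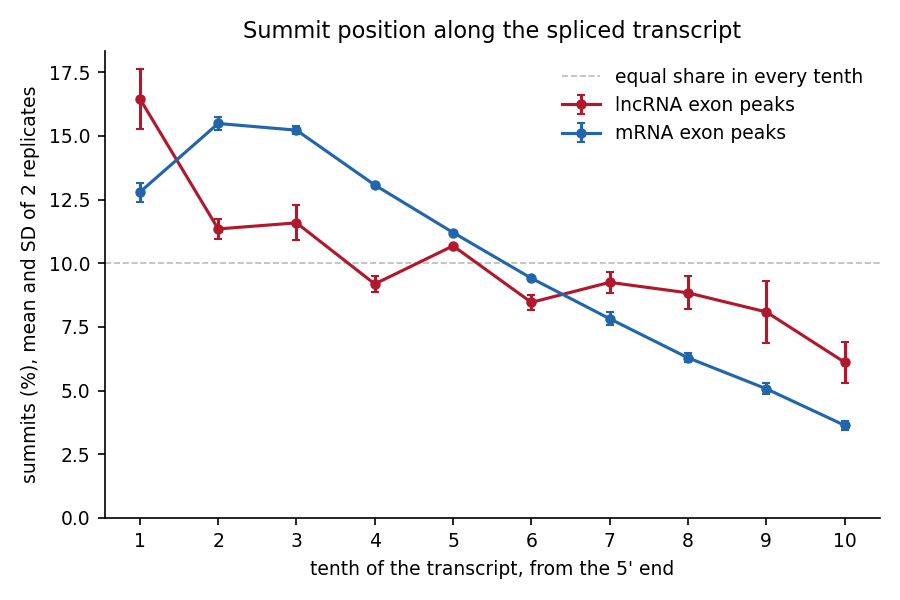
Points give the mean percentage of summits, with bars of 1 SD over 2 RIP replicates, in each of 10 equal bins of the spliced transcript from the 5′ end, for lncRNA exon peaks and mRNA exon peaks. The lncRNA line starts at 16.5% and ends at 6.11%, and the mRNA line starts at 12.8%, is highest at 15.5% in bin 2 and ends at 3.64%.

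The exon at the summit was long. Its median length was 685 and 740.5 nt, against 177 and 172 nt for mRNA exon peaks, and 83.6% and 86.2% of lncRNA exon peaks lay wholly inside exons, against 69.7% and 70.6%. On transcripts of several exons, 43.7% and 44.1% of summits were in the last exon, whereas the last exon held a mean of 58.4% and 57.2% of the bases of those transcripts. For mRNA exon peaks the shares were 24.1% and 22.5% of summits and 48.6% and 48.3% of bases, so a shortfall was seen there too. Without peaks on windows with a further identical copy or likeness to a protein-coding transcript, the last exon held 55.7% ± 0.668 (SD, n = 2) of summits. The share of bases for that set is not given here.

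The m6A-type sequences were only modestly more frequent under lncRNA summits. TGGAC, the DNA form of UGGAC, was searched as these letters on the strand of the lncRNA and is itself contained in the GGAC search. It was present in 11.6% and 10.2% of the windows and in 8.59% of 314547 tiles of all lncRNA exons, a ratio of 1.27 ± 0.114 (SD, n = 2). On the opposite strand the same ratio was 1.26. On the strand of the lncRNA the ratio was 1.56 ± 0.0342 at pseudogene loci and 1.08 ± 0.155 elsewhere, the latter within its spread of 1. On the opposite strand these ratios were 1.43 and 1.15. In windows of a single copy with no likeness to a protein-coding transcript the ratio on the lncRNA strand was 1.32 ± 0.00424. The tiles were not filtered for copies or likeness, so this ratio does not compare like with like. Its value on the opposite strand is not given here. GGAC was present in 30.7% and 28.0% of windows and 25.2% of tiles, a ratio of 1.16 ± 0.0764, and on the opposite strand its ratio was 1.25. For mRNA exon peaks over the same lncRNA tiles, the ratios were 1.39 ± 0.0128 for TGGAC and 1.20 ± 0.00253 for GGAC (SD, n = 2). On the opposite strand of mRNA exon peaks they were 1.19 and 1.14. ACACA, a CA-rich sequence like those described for IGF2BP proteins, gave 11.1% and 12.9% against 12.2%, a ratio of 0.985 ± 0.106. Its ratio was 0.692 ± 0.131 at pseudogene loci and 1.18 ± 0.0784 elsewhere, below and above 1 by more than the spread, and on the opposite strand elsewhere it was 0.818. Windows held more G and C than tiles, with 50.8% and 49.3% against 45.0%, and the part of base composition in the motif ratios was not tested.

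Frames free of stop codons were more common in windows than in tiles, on both strands. A frame without a stop codon through the whole window was present on the gene strand in 71.4% and 67.3% of windows and in 53.6% of tiles. At pseudogene loci it was 79.7% and 80.1%, close to the 79.3% and 78.9% of mRNA exon peaks, and elsewhere 65.7% and 59.3%. On the opposite strand of lncRNA windows the shares were 66.5% and 63.1%, against 53.5% of tiles. The part of base composition in these shares was not tested.

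In each of 5 lists of lncRNAs known by function, 1 to 5 genes had a peak. The shares with a lncRNA exon peak in either replicate were 15.6% of snoRNA hosts, 2.41% of microRNA hosts, 16.7% of nuclear lncRNAs, 40% of cytoplasmic lncRNAs and 26.7% of lncRNAs studied in cancer, beside 2.23% of all annotated lncRNA genes. The lists are short and hold well-known genes, and expression was not measured. Of 32 genes that host small nucleolar RNAs in their introns, 5 had a lncRNA exon peak in replicate 1 and 3 in replicate 2, where 1.81% and 1.65% of all annotated lncRNA genes did, and 24 had no peak of any kind within the gene. The 3 with a peak in both were SNHG16 with folds of 2.16 and 2.06, SNHG18 with 2.68 and 3.78, and DANCR with 2.75 and 1.92. The SNHG16 peaks of the replicates did not overlap, and the window of replicate 2 had a further copy in the genome. GAS5 and ZFAS1, abundant members of the class, had none. Of 83 microRNA host genes, MIR600HG, with 7 and 5 peaks and highest folds of 3.33 and 3.001, and MIR4435-2HG, with 1 and 1 that did not overlap, were the only ones with a lncRNA exon peak, and 78 had no peak of any kind within the gene.

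Among 6 nuclear lncRNAs, MALAT1 and NEAT1, which are among the most abundant RNAs of the nucleus, had no peak in either replicate. FIRRE, with 1 peak in replicate 2 at a fold of 2.25, was the only member with a lncRNA exon peak. The peak of KCNQ1OT1 in each replicate also lay in a protein-coding exon and did not count. TUG1 is annotated as protein-coding in this release, and its 5 and 4 exon summits were likewise not counted. Among 5 cytoplasmic lncRNAs, OIP5-AS1, described as a sponge for the RNA-binding protein HuR, had 6 and 4 peaks with highest folds of 3.73 and 3.84. H19, an imprinted transcript next to IGF2, had 1 peak in replicate 2 with a fold of 2.43, and NORAD had none.

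Of 15 lncRNAs studied in cancer, CASC9 had 2 and 3 peaks with highest folds of 3.14 and 3.24, the latter on a window with 252 identical copies in the genome. UCA1 had 3 and 2 with highest folds of 2.57 and 2.80. AFAP1-AS1 and FEZF1-AS1 each had 1 peak in replicate 1 and none in replicate 2. AFAP1-AS1 had 9 and 8 summits in its exons, but all except 1 of them also lay in a protein-coding exon. HOTAIR and PVT1 had no peak in either replicate. No named gene of these 5 lists reached a q of at most 0.05 with a peak of at most 1000 bp. A gene without a peak was not enriched over background as the authors' caller set it, and without input values this says nothing of its level.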

How the data were processed

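The data used here were 2 peak lists, 1 per IGF2BP3 RIP replicate, in hg38. The submitters' processing notes name fastp, HISAT2 and MACS2, whereas the study's methods name Tophat2 for alignment. Versions, read depth and the caller's control library are not given in the sources used here. For each peak the authors' caller deposited a fold enrichment (ratio), a −log10 p, a −log10 q and a score, which was the whole part of 10 times the −log10 p in 100% of peaks. Replicate 1 had a lowest −log10 p of 2.0003 and replicate 2 of 2.00226. The lists give no strand, and 13 and 12 peaks on unplaced scaffolds were not assigned to genes.

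Summits were assigned with GENCODE release 44, and coordinates are 1-based. Windows of the summit and 50 nt on either side were compared with protein-coding transcripts by blastn (BLAST 2.17.0, word size 16), and identical copies were counted on both strands of the assembled chromosomes. Tiles for every comparison were consecutive stretches of window length within exons, so exons shorter than a window gave none. Replicate numbers came from the sample titles. Values are given per replicate with mean ± SD, no test across peaks was made, and counting error is unknown because depth is unknown.

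Members and gene lists were chosen with earlier results of these data known. Named genes were the 10 lncRNA genes with the most peaks and the 10 with the highest fold, ranked by the average of the 2 lists where both held a peak of the gene, every gene with a q of at most 0.05 in both, and listed lncRNAs with a peak in both. Sequences were taken in the order of q in both and then highest fold, none from chromosome 8, and 1 more is not reported here. CCAT1, LINC00152 and LINC00657 were not matched in this annotation. Matching was by symbol alone, so these genes may be present there under another symbol. The steps were tested on simulated data. Scripts ran under Python 3.11.15 with pysam 0.24.0, pandas 2.3.3, numba 0.67.0, numpy 2.4.6, samtools 1.23.1, matplotlib 3.10.9 and scipy 1.17.1.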

Additional observations from a re-analysis of the deposited data

Results flagged for a closer look

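The width limit left out peaks on lncRNA exons outside protein-coding exons that were wider than 1000 bp, 24 in replicate 1 and 14 in replicate 2, and the comparisons did not use them. Every wide peak had an overlapping partner in the other list, whereas 60.2% and 64.2% of all deposited peaks of the replicates had one. A wide peak meets an overlap of 1 bp more readily, and the share over all peaks of such width is not given here. UCA1, a lncRNA first described in bladder carcinoma, had one at chr19:15834502-15836072 in replicate 1, with a fold of 4.47 (q of 0.00163), and one at chr19:15834490-15836216 in replicate 2, with a fold of 5.10 (q of 0.000829). Both exceed the highest fold of its narrower peaks, 2.57 and 2.80. LINC00294 had a peak 3280 bp wide in replicate 1, with a fold of 5.97 (q of 0.000633).

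Summits in introns of lncRNA genes, outside exons of any gene and outside protein-coding gene bodies, were counted as data that the comparisons did not use. There were 189 in replicate 1 and 191 in replicate 2. Their median fold enrichments were 2.56 and 2.51, and 50.3% and 60.7% of them overlapped a peak of the other replicate.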

How the results depend on the processing

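Across 86 alternative values, 51 moved by less than the spread between replicates or, for counts, by less than 1.5 times, 35 moved by more and 0 changed direction. A change of direction could be assigned only to the fold difference and the TGGAC ratio. Leaving out either replicate always moves a mean by less than their SD, so those values, apart from counts, could not count as moved. The alternative with windows of 1 copy and no match to a protein-coding transcript was chosen after seeing the data. With summits in exons of 1 lncRNA gene and of no other gene, the mean number of peaks per replicate was 383.5, genes with a peak in both replicates 117, the share in the last exon 56.6%, the TGGAC ratio 1.12 and the density 0.328 peaks per kb. With a q of at most 0.05 the same values were 20, 1, 20%, 1.55 and 0.158, the overlap with the other replicate was 73.3%, the median fold difference -0.416 and the share inside a protein-coding gene body 10%. With a fold of at least 5 there were 4.5 peaks per replicate and 0 genes in both, the overlap was 67.5%, the share with a q of at most 0.05 100%, the shares inside a protein-coding body and in the last exon 10% and 32.5%, and the density 0.168. With windows of 1 copy and no match to a protein-coding transcript, 432.5 peaks per replicate, 141 genes in both, 25.4% inside a protein-coding body, 55.7% in the last exon and 0.315 peaks per kb were found. Basic transcripts alone gave 21.1% inside a body, 43.1% in the last exon and 0.519 peaks per kb. Any overlap in place of the summit gave 15.6% and 43.0% for these shares. Without the width limit the last-exon share was 44.5%, and with the transcript of most exons it was 41.1%. Same-strand bodies held 5.26%. Overlap of 50% of both peaks was met by 26.6%, and overlap with another lncRNA exon peak by 49.8%.

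Leaving out either replicate gave 704 to 775 peaks, an overlap of 52.3% to 58.0%, a fold difference of -0.385 to -0.242, a q share of 1.42% to 3.87%, a body share of 16.9% to 18.2%, a last-exon share of 43.7% to 44.1%, a TGGAC ratio of 1.19 to 1.35 and a density of 0.393 to 0.432. The q share was 1.42% without replicate 1 and 3.87% without replicate 2, on either side of a mean of 2.65%. No paired analysis was possible because only the peak lists of the RIP group were used here and no result comes from a test. Peak lists give no read depth, so sites near the caller's limit cannot be graded further.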
